A study of Mus musculus with 56 samples.

Results

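The genes that encode 6 STAT transcription factors and 3 JAK kinases were followed through 56 ChIP-seq peak lists from bone marrow-derived macrophages (BMDMs). The members are Stat2, Stat3, Stat4, Stat5a, Stat5b, Stat6, Jak1, Jak2 and Tyk2, and every peak that the deposited annotation gave to 1 of these 9 gene names was taken, whatever the antibody or condition. This gave 1518 peaks of 1610519 in all, and 9 genes of 20352 that any peak was named for.

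JAK kinases sit on the inner parts of cytokine receptors and, once a cytokine binds, phosphorylate the receptor and the STAT proteins that dock on it. The phosphorylated STATs pair up, enter the nucleus and bind DNA. In macrophages IL-4 acts mainly through STAT6, interferons through complexes that hold STAT2, and IL-6 and IL-10 through STAT3, while SOCS and CIS proteins are made in response and damp the pathway.

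All cells came from wild-type mice of 8 to 12 weeks and were grown for 6 days in medium with L929 cell supernatant, a source of the growth factor M-CSF. In the 1 hr experiment BMDMs were left untreated (ctrl) or given IL-4 at 20 ng/ml for 1 hr. In the pretreatment experiment BMDMs had IL-4 at 20 ng/ml for 24 hr (IL-4 PT) or none, and then lipopolysaccharide (LPS), a bacterial cell wall product, at 100 ng/ml for 1 hr or none, which gave 4 groups: without either agent (ctrl/ctrl), with pretreatment alone (IL-4 PT/ctrl), with LPS alone (ctrl/LPS) and with both (IL-4 PT/LPS). The 1 hr experiment has 32 lists, for RNA polymerase II phosphorylated at serine 5 (RNAPII-pS5, near starts) or serine 2 (RNAPII-pS2, in gene bodies), acetylated histone H3 (H3K27Ac, at active promoters and enhancers), the macrophage factor PU.1, the acetyltransferase p300 and the deacetylases HDAC1, HDAC2 and HDAC3. The pretreatment experiment has 24 lists, for RNAPII-pS5, RNAPII-pS2 and the NF-kB subunit p65. Each of the 28 groups has 2 lists. Nothing in the labels says that the 2 came from separate cultures or animals. The paper describes its ChIP-seq data for these antibodies as pooled from 2 independent biological replicates, without saying what sets these apart. The p-values rest on the spread between these lists, which limma partly pools over features of similar score. They do not measure the spread of a site's own lists alone. In bulk cells, fewer cells with a bound site and less binding per cell cannot be told apart.

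Read depth was not known, and only peak counts stand for it. Lists for p65 held 9556 to 11026 peaks without LPS and 26305 to 38955 with it. The list of p300 ctrl replicate 1 stood apart with 44787 peaks and a median score of 11.0, against 66710 to 69360 peaks and medians of 18.2 to 19.2 in the other 3, so p300 results are given with and without it. HDAC3 carries the catalogue number of the H3K27Ac antibody in the labels. After 1 hr, the 4 lists for RNAPII-pS2 carry the other treatment in their peak names, so for these the libraries are named as labelled and the sign is not read as an IL-4 effect. As a check of the cell type, 7 of 10 macrophage marker genes had an RNAPII-pS5 peak in all 12 lists of that antibody, with summed scores of 132 to 582, while Adgre1 and Spi1 had none. Of the markers of other cell types, 3 of 7 for T cells had such a peak in at least 1 list (Cd3d and Lck in all 12 and Cd28 in 8, summed scores 21.6 to 231), 2 of 5 for B cells (Ms4a1 in 12 and Cd79b in 8, 17.1 to 165), 1 of 5 for NK cells (Klrb1c in 12, 4.62 to 48.9), 1 of 4 for dendritic cells (Flt3 in 12, 14.7 to 67.9) and 1 of 4 for neutrophils (Elane in 4, 0 to 5.41). Without a peak were, among others, Cd3e, Cd3g, Cd4 and Cd8a of T cells, Cd79a and Pax5 of B cells, Ncr1 of NK cells and Ly6g and Mpo of neutrophils.

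Peak scores are the peak caller's -log10 values, or for H3K27Ac the strength of regions 1001 bp long. Overlapping peaks of 1 antibody were merged into sites, named here by their distance in kb from the nearest annotated start of the gene (negative is upstream). A site counted for a member if any of its peaks carried the member's name. Its score in another list can come from a peak not named for the member. RNAPII peaks were summed per gene with intergenic ones left out. For such sums, no peak means none outside intergenic space. A site was called when limma's test, adjusted over all sites of the antibody, gave a p of at most 0.05. Log2 changes are relative to the median of the sites or genes listed in all lists of the antibody in that experiment. The median change over all tested sites can therefore differ from none, and for p65 with LPS alone it was 0.64. Changes given with ± carry the standard error. Where a list has no peak the lowest score of the antibody's lists stands in, so no fold is given against a group without any peak. A site had to be listed at least 2 times to be tested. One that was listed in both lists of 1 group and nowhere else was tested only because it was high there, so its scores are given without a p, and counts are also given without such sites. A site listed in both lists of 1 group and 1 list of another also met the minimum through the first group. Such sites keep a p and remain in both counts.

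Peaks were spread unevenly over the 9 genes. Jak1, the kinase shared by many cytokine receptors, had 383 peaks and was the only member with at least 1 peak in all 56 lists. Jak2, which serves among others the interferon-gamma and GM-CSF receptors, had 243 peaks, and 174 of these were intergenic. Stat5b had 220 peaks, Stat3 163, Tyk2 146, Stat6 126, Stat5a 105 and Stat4 69. Stat2 had the fewest, with 63, none of them intergenic. These counts are not per length, and Stat4 spans 120042 bp and Jak1 112916 bp, but Stat6 only 17972 bp. Of the 1518 peaks 824 were in introns, 392 were intergenic and 220 were at promoters. Stat4, best known from T and NK cells, had peaks in 33 of 56 lists and no RNAPII peak in the 1 hr experiment.

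**Figure D1:**
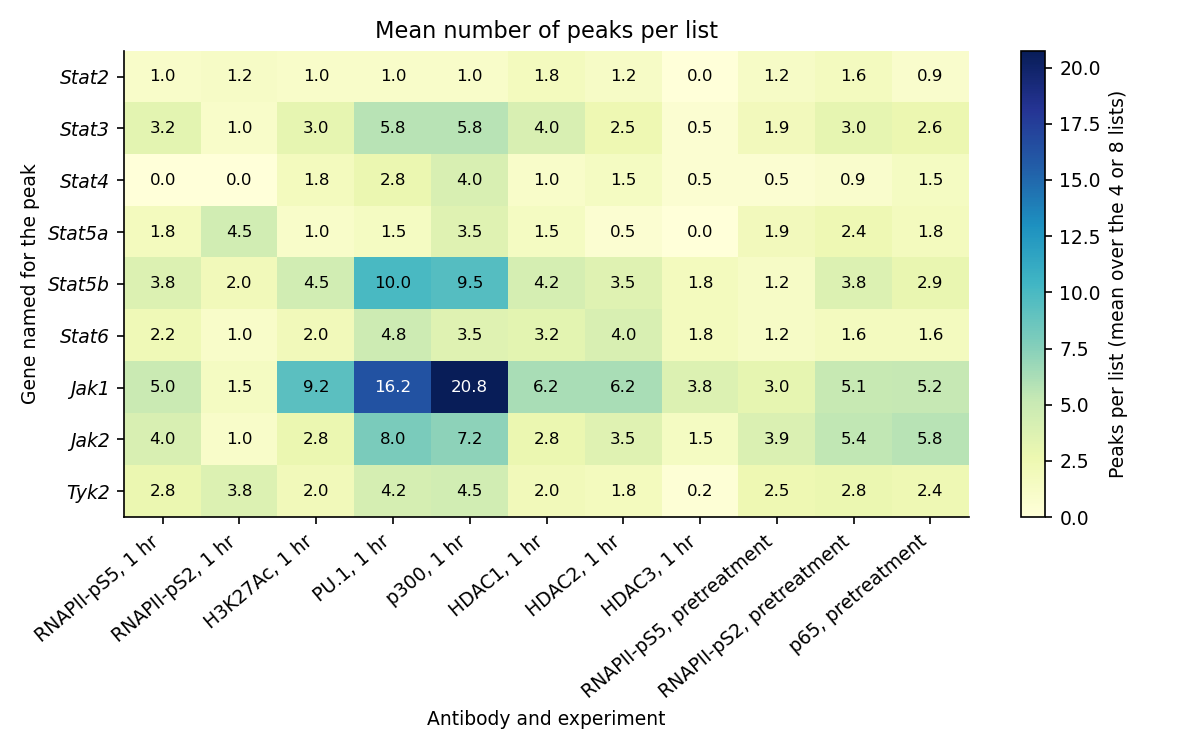
Mean number of peaks per list named for each of the 9 genes (rows) by antibody and experiment (columns). Each cell is the mean over all lists of the antibody in that experiment, 4 for the 1 hr and 8 for the pretreatment experiment. Jak1 has the most peaks for p300 and PU.1, and Stat4 has no RNAPII peak in the 1 hr experiment.

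In mm10 the genes lie at chr10:128270559-128292849 (Stat2, + strand), chr11:100885098-100939540 (Stat3, - strand), chr1:51987148-52107189 (Stat4, + strand), chr11:100859351-100885169 (Stat5a, + strand), chr11:100780731-100850724 (Stat5b, - strand), chr10:127642986-127660957 (Stat6, + strand), chr4:101152367-101265282 (Jak1, - strand), chr19:29251828-29313080 (Jak2, + strand) and chr9:21104068-21131243 (Tyk2, - strand). Stat3, Stat5a and Stat5b are neighbours, and the 2 sites named for Stat5a at 28.1 and 33.1 kb lie inside Stat3. Intergenic by the deposited annotation does not mean empty: the H3K27Ac region named for Jak1 at -27.4 kb and the p300 sites at -26.9 and -28.0 kb overlap the annotated transcript Gm12796, and the Tyk2 sites of p300 at -3.61 kb and p65 at -4.92 kb lie in Cdc37, a gene for a kinase chaperone.

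The 1 hr experiment asked where IL-4 moves chromatin factors. At Jak2 p300 was called higher at 6 of 8 tested sites and lower at none, beside 21% of all p300 sites called in either direction. The site at -12.1 kb, intergenic, went from no peak and 10.18 in ctrl to 183.11 and 190.41 with IL-4. Both IL-4 lists lay far above both ctrl lists, and the log2 change of 4.99 ± 0.33 (adjusted p = 5.1e-13) rests in part on the value that stands in for the missing peak. The IL-4 lists alone met the minimum of 2 lists here. At -41.7 kb p300 scored 18.18 and 57.6 in ctrl and 131.37 and 161.14 with IL-4, a log2 change of 1.5 ± 0.22 (adjusted p = 2.4e-06), again without overlap. At -33.5 kb, 1 of the 6, no ctrl list had a peak and the IL-4 lists scored 42.71 and 39.97, so this site was tested through the IL-4 lists alone.

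The site at -23.5 kb had no peak and 10.25 in ctrl and 40.95 and 32.89 with IL-4 (log2 change 2.64, adjusted p = 0.0005). In an intron, at 1.27 kb, p300 went from no peak and 15.72 to 31.77 and 32.36 (log2 change 2.13, adjusted p = 0.0054). At the promoter, -0.632 kb, the groups overlapped: no peak and 20.09 in ctrl, 36.01 and 19.3 with IL-4 (log2 change 1.67, adjusted p = 0.046), and without ctrl replicate 1 the change was 0.48 (adjusted p = 0.47). At each of these sites both IL-4 lists alone met the minimum of 2 lists. Not every site moved. At -10.1 kb p300 scored 24.66 and 66.91 in ctrl and 56.36 and 47.07 with IL-4, so the groups overlapped.

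The sequences of 4 of these upstream p300 sites are shown because their letters can be read beside their scores. The windows are 300 bases around the centre of the site in GRCm38, and capitals mark a STAT half-site pair, TTC and GAA with 3 bases (TTCNNNGAA) or 4 bases between them, searched on both strands.
Jak2 -41.7 kb, chr19:29209993-29210292, + strand: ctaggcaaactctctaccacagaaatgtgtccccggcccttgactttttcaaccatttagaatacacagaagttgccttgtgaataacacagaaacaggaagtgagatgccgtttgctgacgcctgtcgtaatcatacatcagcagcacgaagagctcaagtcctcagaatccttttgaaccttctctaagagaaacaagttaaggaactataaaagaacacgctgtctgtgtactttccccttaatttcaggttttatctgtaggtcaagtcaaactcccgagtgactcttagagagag
Jak2 -33.5 kb, chr19:29218181-29218480, + strand: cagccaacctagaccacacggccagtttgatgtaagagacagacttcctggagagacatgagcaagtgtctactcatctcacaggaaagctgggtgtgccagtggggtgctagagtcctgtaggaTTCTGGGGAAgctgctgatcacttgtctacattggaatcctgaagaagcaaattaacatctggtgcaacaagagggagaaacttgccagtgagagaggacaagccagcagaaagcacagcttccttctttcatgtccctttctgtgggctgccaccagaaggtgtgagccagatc
Jak2 -23.5 kb, chr19:29228156-29228455, + strand: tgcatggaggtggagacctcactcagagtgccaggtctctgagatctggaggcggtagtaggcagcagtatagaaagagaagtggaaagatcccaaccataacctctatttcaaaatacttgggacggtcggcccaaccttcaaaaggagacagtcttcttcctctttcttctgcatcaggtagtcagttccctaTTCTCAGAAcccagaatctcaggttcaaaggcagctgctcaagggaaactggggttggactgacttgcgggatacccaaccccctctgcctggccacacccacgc
Jak2 -12.1 kb, chr19:29239619-29239918, + strand: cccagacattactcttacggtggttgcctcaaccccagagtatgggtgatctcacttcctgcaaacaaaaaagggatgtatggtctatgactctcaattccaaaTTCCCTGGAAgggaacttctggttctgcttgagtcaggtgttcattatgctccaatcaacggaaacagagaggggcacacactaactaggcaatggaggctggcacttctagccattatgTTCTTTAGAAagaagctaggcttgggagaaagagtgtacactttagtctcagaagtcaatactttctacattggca
The window at -12.1 kb, with the largest p300 change, held 2 pairs with 4 bases between. Those at -33.5 and -23.5 kb held 1 each, and the window at -41.7 kb held none.

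Over all p300 sites, 11.7% had the pair with 3 bases and 13.3% that with 4. Of the 12 member sites called higher for p300 8 had at least 1 pair (66.7%), of the 7 called lower none had, and of all 65 tested 14 had (21.5%). The same shares over all genes were 63.1% of 9124 sites called higher, 8.92% of 5002 called lower and 23.3% of 67225 tested, so the members looked like the rest. The 4 member sites called higher without a pair were Jak2 -41.7 kb, Jak1 51.2 and -26.9 kb, and Tyk2 5.52 kb. A match is only a run of letters and does not show that a STAT protein was there.

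**Figure D2:**
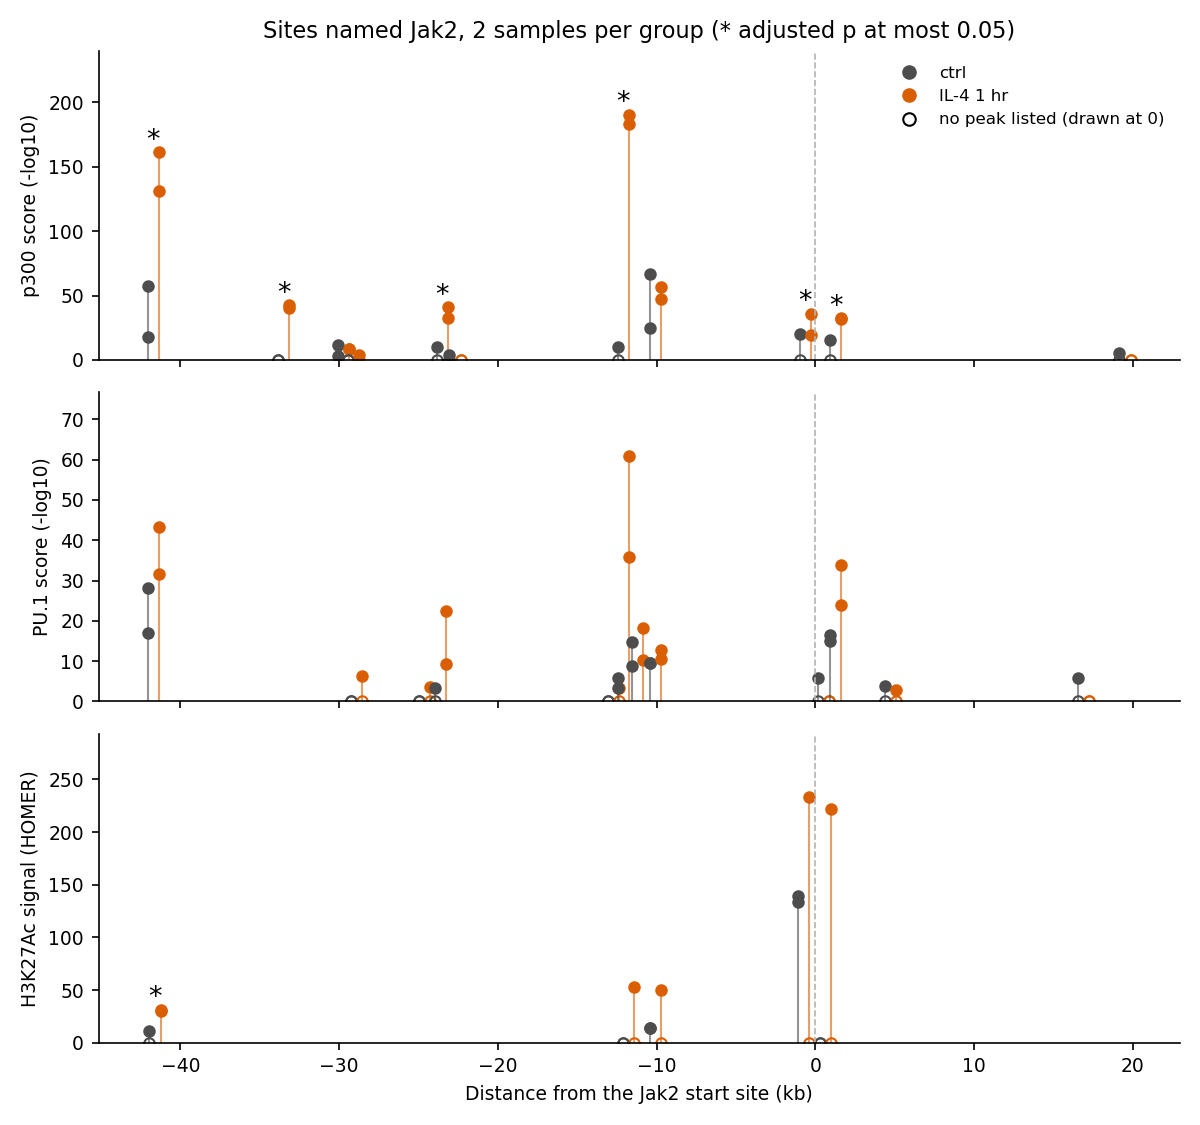
Score of every p300, PU.1 and H3K27Ac site named for Jak2 (vertical axis, peak score) against its distance in kb from the Jak2 start (horizontal axis), with 2 ctrl lists in grey and 2 IL-4 lists in orange, set slightly to the left and right. Open symbols at 0 mark lists without a peak and stars mark sites called by limma, that of p300 at -33.5 kb being listed with IL-4 alone. The p300 points at -12.1 kb reach 183.11 and 190.41 with IL-4.

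Over the 9 genes p300 was called at 19 of 65 tested sites (29.2%, 12 higher and 7 lower), beside 21% of all p300 sites. Without the sites listed in 1 group only it was 16 of 60 (26.7%, 10 higher and 6 lower), beside 18.4%. The median log2 change was 0.14 over the member sites and 0.11 over all. The count was 17 of 64 without ctrl replicate 1, with 14 sites called both ways, 25 of 59 without ctrl replicate 2, and 10 of 60 and 9 of 57 without IL-4 replicate 1 and 2. The ctrl and IL-4 lists also differed in level by 0.67 on the log2 scale at sites listed in all 4. Without that centring 0 of 65 member sites, and 0% of all sites, passed limma's adjusted threshold, while 13 of the 65 had an unadjusted p under 0.05. The count was 2 without limma's trend, 6 with no filter and 6 with another rule for overlap. Of the 16 calls at sites listed in more than 1 group, 0 kept call and direction under every alternative that tested them. The adjusted p-values of single p300 sites, at Jak2 and at the other members, therefore hold for the main settings only.

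Stat2, the partner of interferon signalling, had a single p300 site, at its promoter (-0.149 kb), where it overlaps the end of Apof. It scored 6.88 and 19.31 in ctrl and 86.89 and 92.28 with IL-4, and the groups lay far apart (log2 change 2.29 ± 0.26, adjusted p = 3.5e-08, 2.30 without ctrl replicate 1). The window, here 298 bases that stop short of an annotated UTR, is shown because it is a promoter with a STAT pair, in capitals.
Stat2 -0.149 kb, chr10:128270278-128270575, + strand: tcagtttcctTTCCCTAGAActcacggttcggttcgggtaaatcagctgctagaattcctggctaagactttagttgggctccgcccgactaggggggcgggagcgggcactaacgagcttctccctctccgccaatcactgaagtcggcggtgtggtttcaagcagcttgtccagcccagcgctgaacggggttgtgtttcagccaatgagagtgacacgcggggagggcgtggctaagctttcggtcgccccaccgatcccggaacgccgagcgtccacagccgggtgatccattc
Among the 12 RefSeq promoter windows (GRCm38.p6) found for the 9 genes, only that of Stat2 held a STAT pair, beside 8.3% and 6.95% of all 32851 windows for the 2 spacings.

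The other STAT genes were mixed. Stat5a, which acts downstream of GM-CSF among others, had a promoter site at -0.21 kb that was listed with IL-4 only, at 11.98 and 17.85. Stat5b, its close relative, lost p300 at 9.56 kb, from 20.69 and 36.7 to 20.22 and 13.72 (log2 change -1.40 ± 0.35, adjusted p = 0.0037, but 0.085 without ctrl replicate 1), and at 2.41 kb, from 11.12 and 28.32 to 12.21 and 12.23 (log2 change -1.21 ± 0.44, adjusted p = 0.045, but 0.068 without it). The raw scores of these 2 sites overlapped or nearly so, and the loss is relative to the other sites.

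Stat6, the main STAT of IL-4, lost p300 at -7.71 kb, from 12.0 and 45.8 to 16.56 and 16.7 (log2 change -1.17 ± 0.35, adjusted p = 0.015), with overlapping scores. Its promoter site (-0.294 kb) scored 26.34 and 55.24 in ctrl and 53.28 and 72.0 with IL-4 and was not called. Stat4 lost p300 at 4.7 kb in its intron, from 23.28 and 86.9 to 19.79 and 38.51 (log2 change -1.37 ± 0.28, adjusted p = 0.00037). The IL-4 scores straddled the lower ctrl score. None of the 6 Stat3 sites was called. The strongest, at the promoter (-0.253 kb), scored 18.35 and 41.55 in ctrl and 70.97 and 64.5 with IL-4.

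At Jak1 p300 rose at 3 sites and fell at 2 of 23 tested, beside 21% of all p300 sites called in either direction. The most marked gain lay at -26.9 kb, from 17.5 and 37.41 to 90.51 and 97.93 (log2 change 1.21, adjusted p = 0.00024), without overlap. Just beside it, at -28.0 kb, scores of 55.57 and 143.01 in ctrl and 84.75 and 94.79 with IL-4 gave a log2 change of -0.66 (adjusted p = 0.024), which was 0.01 without centring. At -31.7 kb p300 fell from 16.67 and 36.27 to 6.98 and 14.73 (log2 change -1.95, adjusted p = 0.0012). Neighbouring sites within a few kb thus moved in different directions.

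Inside the Jak1 gene, the intron site at 41.9 kb went from no peak and 5.68 to 21.41 and 26.77 (log2 change 2.45, adjusted p = 0.0092). Its IL-4 lists alone met the minimum of 2 lists. The site at 51.2 kb went from 4.42 and 24.05 to 32.51 and 38.04 (log2 change 1.1, adjusted p = 0.031, but 0.17 without ctrl replicate 1). The former is shown as the intron site of Jak1 with a STAT pair, in capitals.
Jak1 41.9 kb, chr4:101223190-101223489, + strand: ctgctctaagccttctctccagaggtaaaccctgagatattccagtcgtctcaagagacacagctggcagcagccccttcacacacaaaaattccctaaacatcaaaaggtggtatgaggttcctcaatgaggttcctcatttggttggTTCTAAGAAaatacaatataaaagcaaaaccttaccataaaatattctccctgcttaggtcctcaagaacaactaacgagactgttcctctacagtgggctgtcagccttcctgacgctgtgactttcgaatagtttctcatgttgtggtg
Tyk2, the kinase of interferon and IL-12 receptors, gained p300 at 5.52 kb, from 30.53 and 92.59 to 142.38 and 122.13 (log2 change 0.64, adjusted p = 0.029). Its weak site at 2.23 kb was listed in ctrl only, at 4.93 and 7.62. The calls at Jak2 -0.632, -23.5 and 1.27 kb, Jak1 51.2, 41.9 and -28.0 kb, Stat6 -7.71 kb, Stat5b 2.41 kb and Tyk2 5.52 kb were lost when either IL-4 list was left out (adjusted p = 0.097 to 0.71).

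H3K27Ac was called at 7 of 31 member regions (22.6%, 6 higher and 1 lower), beside 43.4% of all regions, and without regions listed in 1 group only at 5 of 29 (17.2%, 4 and 1), beside 39.7%. The median log2 change was 0.09 over the members and -0.02 over all. The Stat2 promoter (-0.082 kb) rose from 190.6 and 176.5 to 295.4 and 271.8 (log2 change 0.68 ± 0.07, adjusted p = 0.004). The groups did not overlap, as with p300 at the same place. Tyk2 at 5.56 kb rose from 161.5 and 168.7 to 213.2 and 203.4 (log2 change 0.39 ± 0.05, adjusted p = 0.009), also beside a p300 gain. Stat5b at 0.295 kb was listed with IL-4 only, at 83.4 and 78.8.

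At Jak2 -41.6 kb, H3K27Ac went from no region and 11.2 to 29.8 and 31.6 (log2 change 1.66 ± 0.15, adjusted p = 0.0033), and here p300 rose as well. Stat4 at 4.59 kb fell from 23.3 and 21.2 to no region and 12.2 (log2 change -1.02 ± 0.18, adjusted p = 0.017, 0.068 without ctrl replicate 1), at the place where p300 fell. Jak1 at 30.6 kb scored 16.6 and 17.5 in ctrl and 21.9 and 21.5 with IL-4 (log2 change 0.40 ± 0.11, adjusted p = 0.049), a call that was lost without any 1 list (adjusted p = 0.17 to 0.28). Stat3 at 31.2 kb was listed with IL-4 only, at 12.6 and 11.5. Over single lists left out the count ran from 5 to 9.

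Fixed region lengths split the Jak2 promoter. The region at -0.756 kb scored 139.7 and 133.7 in ctrl and 232.9 in IL-4 replicate 2, while IL-4 replicate 1 had its region at 0.654 kb, with 221.8. Joined within 1000 bp, an alternative chosen after seeing the data, the promoter rose from 139.7 and 133.7 to 221.8 and 232.9 (log2 change 0.78 ± 0.05, adjusted p = 0.0011). The regions at -11.8 and -10.1 kb, likewise joined, rose from 14.4 and 14.1 to 50.3 and 52.8 (log2 change 1.90 ± 0.11, adjusted p = 0.00081). The Stat6 promoter, 736.4 and 672.9 in ctrl and 605.6 and 568.3 with IL-4, then fell by 0.21 ± 0.06 on the log2 scale (adjusted p = 0.049). In all 9 of 31 regions were called, where 43.4% of all regions were called before joining. The region of highest score, Jak1 -27.4 kb, stayed level at 782.5 and 734.5 in ctrl and 767.2 and 770.0 with IL-4.

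**Figure D3:**
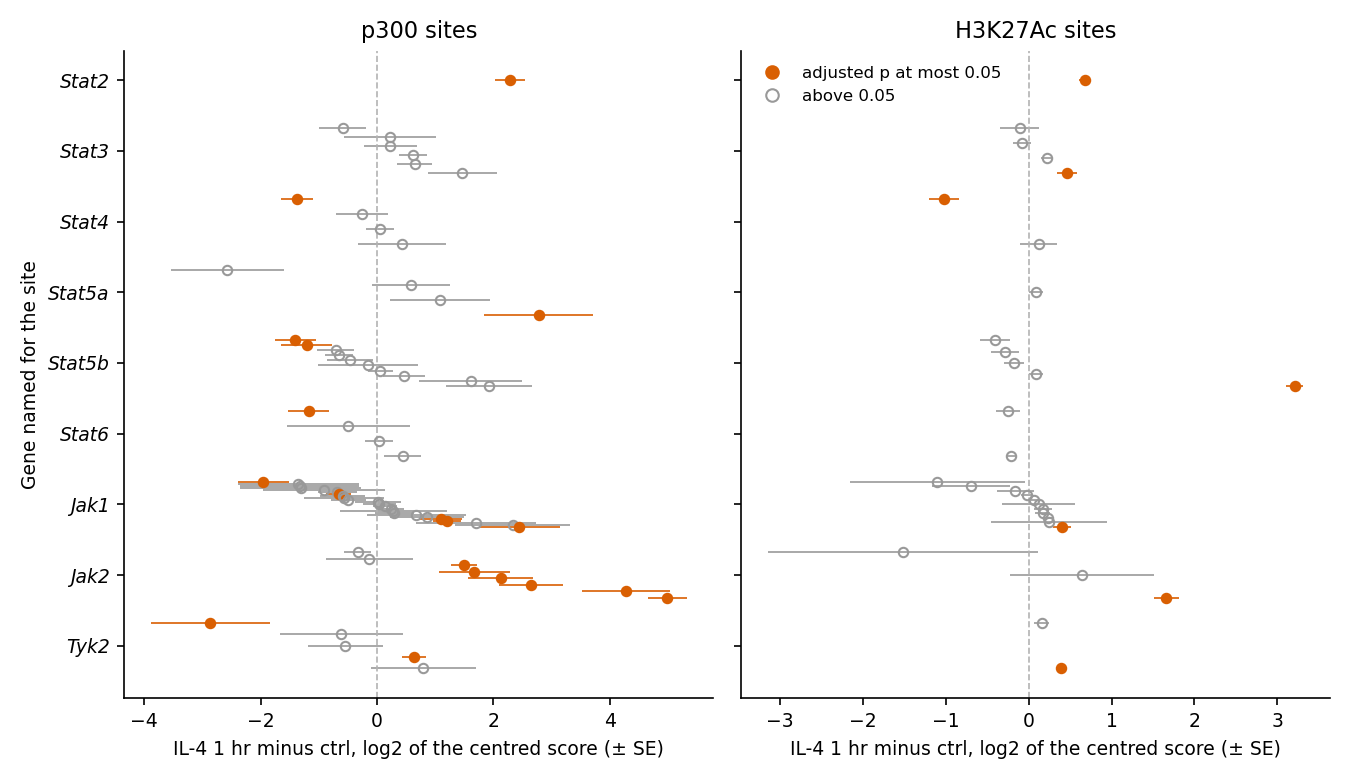
Log2 change between IL-4 1 hr and ctrl (horizontal axis, with the standard error as bars) at each tested p300 site and H3K27Ac region, grouped by gene (vertical axis). Filled orange points were called by limma. Jak2 holds 6 of the 12 member sites called higher for p300, and 3 p300 and 2 H3K27Ac calls are of sites listed in 1 group only.

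PU.1 was called at 0 of 57 member sites by limma, beside 0.0735% of all sites, and 7 member sites had an unadjusted p under 0.05. The lowest adjusted p, 0.059, was at Jak2 -12.1 kb, which scored 5.87 and 3.2 in ctrl and 60.9 and 35.9 with IL-4 (log2 change 3.10 ± 0.49), the same place as the largest p300 change. The scores there did not overlap. At the Stat2 promoter (-0.313 kb) PU.1 had no ctrl peak and 9.19 and 9.04 with IL-4. Stat5b -4.21 kb, Stat3 11.9 kb and Jak1 92.3 kb were the strongest PU.1 sites: the first scored 44.04 and 56.99 in ctrl and 69.09 and 68.93 with IL-4, and the last 44.98 and 33.34 against 47.46 and 50.79. With single lists left out, 0 to 2 sites were called, the 2 without ctrl replicate 1.

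The deacetylases, which remove acetyl groups, were not called at any member site by limma: HDAC1 at 0 of 26 (beside 0% of all sites), HDAC2 at 0 of 26 (beside 0.00404%) and HDAC3 at 0 of 11 (beside 1.32%). At an unadjusted p under 0.05 the counts were 2, 5 and 0. The Stat3 promoter was the strongest HDAC1 site, with 26.24 and 22.27 in ctrl and 21.4 and 13.05 with IL-4. The strongest HDAC2 site was Stat6 -10.9 kb, with 25.99 and 11.56 against 12.64 and 12.23. The peak of 12.64 was not named for Stat6. HDAC3 at Jak2 -12.1 kb had no ctrl peak and 7.44 and 4.88 with IL-4. No HDAC3 peak was named for Stat2 or Stat5a.

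RNAPII at the members was not called after 1 hr of IL-4. By limma 0 of 8 genes passed for RNAPII-pS5, beside 0.46% of all genes, and 0 of 8 for RNAPII-pS2, beside 1.53%, with 0 at an unadjusted p under 0.05 in each. Jak2 had the largest RNAPII-pS5 change, from summed scores of 21.34 and 20.78 to 31.1 and 35.49 (log2 change 0.68 ± 0.32, adjusted p = 0.43). Its groups did not overlap, but the change did not pass. Stat2 RNAPII-pS5 summed to 131.95 and 84.27 in ctrl and 110.83 and 103.09 with IL-4. Outside intergenic space Jak1 RNAPII-pS2 had 2.95 and 6.55 in the libraries labelled ctrl and no peak in those labelled IL-4. Its intergenic peak, left out of the sum, was in every list. It scored 26.46 and 53.64 in the libraries labelled ctrl and 39.89 and 50.43 in those labelled IL-4.

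The pretreatment experiment asked how earlier IL-4 changes the response to LPS. For RNAPII-pS5 each of the 4 comparisons called 1 of 9 members (11.1%), beside 27.5% of all genes for LPS alone, 7.73% for IL-4 PT alone, 11% for IL-4 PT/LPS against ctrl/LPS and 3.26% for the interaction, which is the LPS response with pretreatment minus that without. All 4 comparisons come from the same 8 lists and are not independent. The LPS lists differed in level from ctrl/ctrl by -0.34 on the log2 scale at genes listed in all lists, and IL-4 PT/LPS from ctrl/LPS by 0.38.

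Stat4 RNAPII-pS5 was found almost only with LPS alone. It summed to 2.97 and no peak in ctrl/ctrl, had no peak in IL-4 PT/ctrl, scored 13.43 and 9.64 in ctrl/LPS and again had no peak in IL-4 PT/LPS. The LPS rise was 2.80 ± 0.44 on the log2 scale (adjusted p = 0.0077) and remained called without any 1 list. The difference between IL-4 PT/LPS and ctrl/LPS had an adjusted p of 0.011, and 0.059 to 0.066 without ctrl/LPS replicate 1 or either IL-4 PT/LPS list. Stat4 RNAPII-pS2 showed 7.1 and 12.67 in ctrl/ctrl, none in IL-4 PT/ctrl, 24.12 and 12.6 in ctrl/LPS and none and 7.82 in IL-4 PT/LPS, and no comparison of it was called.

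Stat3 RNAPII-pS5 fell with IL-4 PT alone, from 14.17 and 17.92 to 5.07 and 6.02 (log2 change -1.59 ± 0.30, adjusted p = 0.027). With LPS it stood at 18.29 and 16.64, or at 17.57 and 15.61 after IL-4 PT. So the lists without LPS were well apart and those with LPS were close, though the interaction of 1.13 ± 0.43 did not pass (adjusted p = 0.19). Left out singly, any list took the fall to an adjusted p of 0.051 to 0.12.

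Stat5a was the member with the largest interaction. Its RNAPII-pS5 sums were 15.76 and 13.33 in ctrl/ctrl, 4.48 and 7.61 in IL-4 PT/ctrl, 9.2 and 6.19 in ctrl/LPS and 31.84 and 25.85 in IL-4 PT/LPS. The 2 lists with both agents were the highest and did not overlap any other. The interaction was 2.91 ± 0.55 (adjusted p = 0.048), and 0.1 to 0.13 when any 1 list was left out. RNAPII-pS2 had the same order, with 19.48 and 10.67, then 7.74 and 4.44, then 10.98 and 12.38, then 45.47 and 36.38. There the interaction was 2.90 ± 0.62 with an adjusted p of 0.052, which missed the threshold.

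For RNAPII-pS2, 1 of 9 members was called with LPS alone (11.1%, beside 27.3% of all genes), and by limma 0 of 9 with IL-4 PT alone (beside 15.3%), with IL-4 PT/LPS against ctrl/LPS (beside 8.24%) and for the interaction (beside 3.63%). At an unadjusted p under 0.05 those last 3 comparisons had 4, 2 and 1. Jak2 was the member called. Outside intergenic space it summed to no peak and 6.44 in ctrl/ctrl, no peak in IL-4 PT/ctrl, 23.47 and 19.0 in ctrl/LPS and 21.27 and 29.02 in IL-4 PT/LPS. With intergenic peaks the sums were 17.45 and 17.93, 20.11 and 29.76, 71.58 and 70.52, and 72.33 and 79.34 in the same group order. Either way the lists with LPS all lay above those without. Outside intergenic space the log2 change was 2.73 ± 0.75 (adjusted p = 0.034). Without ctrl/ctrl replicate 1 it was 1.57 (adjusted p = 0.096), and without 1 of the other lists, except ctrl/ctrl replicate 2, the adjusted p was 0.051 to 0.12.

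Jak2 RNAPII-pS5 outside intergenic space followed a like course that was not called, with 3.73 and 8.57 in ctrl/ctrl, none in IL-4 PT/ctrl, 9.35 and 10.24 in ctrl/LPS and 21.85 and 13.32 in IL-4 PT/LPS. Stat5b RNAPII-pS5 was the reverse under LPS, with 9.22 and 4.18 in ctrl/ctrl, 10.39 and 10.24 in IL-4 PT/ctrl, none in ctrl/LPS and 11.57 and 4.87 in IL-4 PT/LPS (LPS alone, adjusted p = 0.068). Stat2 RNAPII-pS2 stood at 22.91 and 15.42 in ctrl/ctrl and 5.29 and 5.93 in IL-4 PT/ctrl (log2 change -1.59, adjusted p = 0.076). Stat6 was not called in any comparison, with RNAPII-pS5 sums of 10.02 to 23.29 over the 8 lists, nor was Jak1, with RNAPII-pS2 sums of 14.85 to 48.81.

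**Figure D4:**
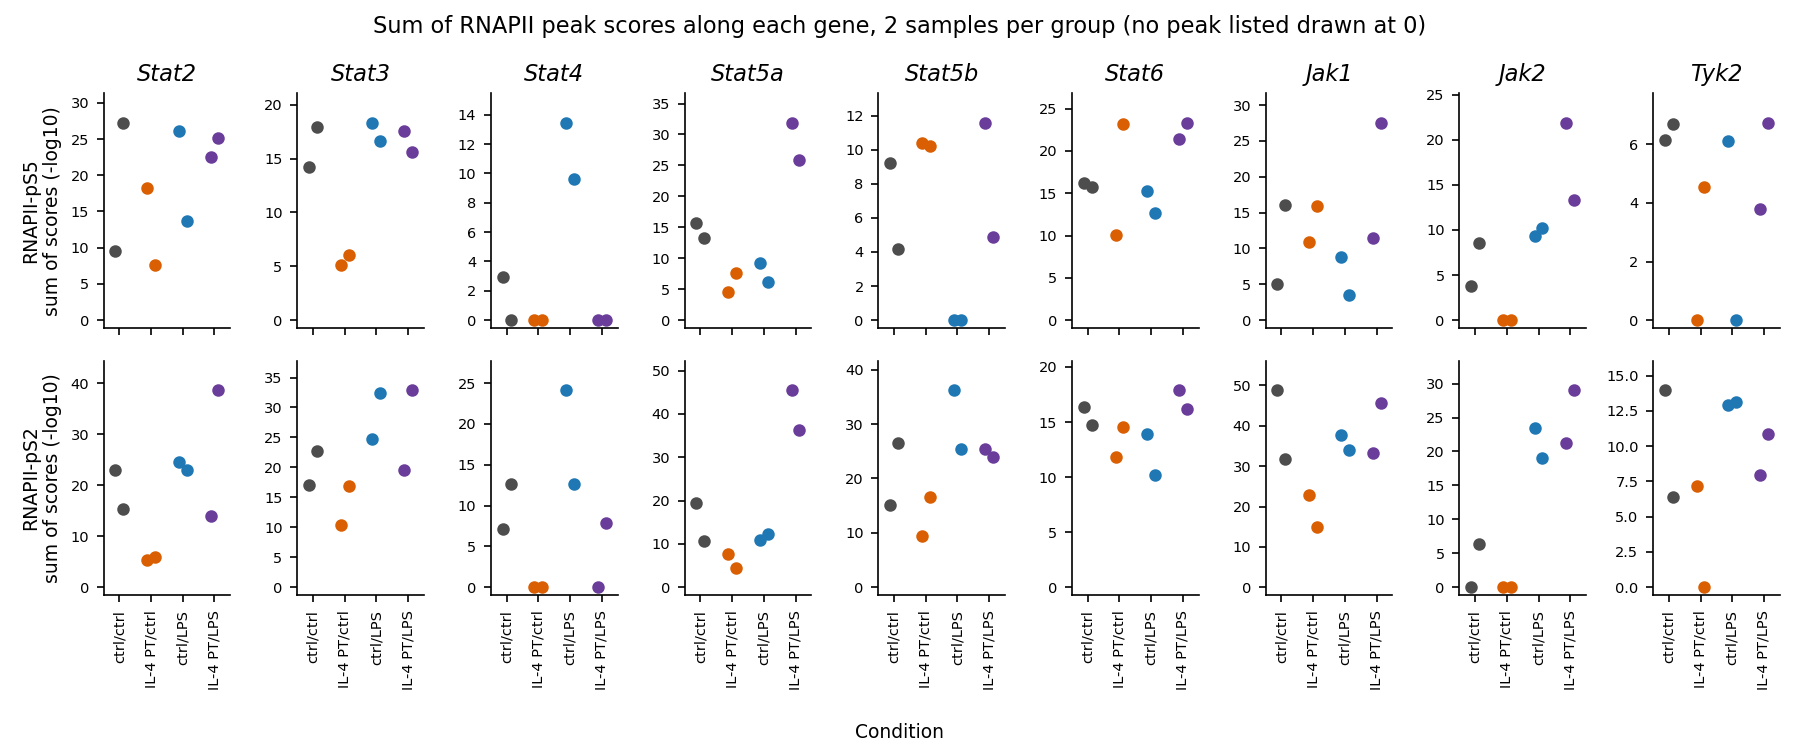
Summed RNAPII peak score per list (vertical axes, sum of peak scores) for the 9 genes in the 4 pretreatment groups, with RNAPII-pS5 and RNAPII-pS2 in separate panels and each point 1 list. Intergenic peaks are left out, and lists without any other peak are drawn at 0. Stat5a is highest in both IL-4 PT/LPS lists for both antibodies.

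Genes whose RNAPII sums ran most like a member over the 16 pretreatment lists were found by Euclidean distance among 3244 genes with a peak outside intergenic space in every list. For Stat3 they were Parvb (1.12) and Cdhr3 (1.18), where the median gene was at 3.22. For Stat6 they were Rfc4 and H2-T24 (both 0.98, median 2.46), for Stat2 Rasa4 (1.81) and Crem (1.86, median 3.73), for Jak1 Pet112 (1.84) and Ndufv2 (1.85, median 3.42), and for Stat5a Smu1 (2.07) and Ankzf1 (2.20, median 4.23). Stat4, Stat5b, Jak2 and Tyk2 lacked a peak outside intergenic space in some list and have no such value.

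p65, which enters the nucleus on LPS, was called higher with LPS at 10 of 38 member sites and lower at none (26.3%, beside 39.8% of all sites), or at 9 of 37 (24.3%, beside 38.5%) without sites listed in 1 group only. None of the sites called had a peak in ctrl/ctrl, and all but Tyk2 5.61 kb had peaks only with LPS. Sites with peaks only with LPS met the minimum of 2 lists through those lists, so their LPS calls are given without a p. Neither count is free of such sites. The lists with LPS were also higher in level by 1.05 on the log2 scale at sites listed in all 8, so a change here is on top of that. At the Stat3 promoter (-0.338 kb) no list without LPS had a peak, ctrl/LPS scored 38.48 and 29.92 and IL-4 PT/LPS 11.29 and 15.31. The site was called with LPS. IL-4 PT/LPS was lower than ctrl/LPS by a log2 change of -1.64 ± 0.24 (adjusted p = 0.0041), and those 2 groups did not overlap. Without IL-4 PT/LPS replicate 1 the change was -1.45 and the call was lost.

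Stat4 had 2 sites called with LPS, and no peak at either without LPS. At 0.317 kb, in the 5' UTR, p65 scored 18.59 and 20.35 in ctrl/LPS and 19.36 and 30.52 in IL-4 PT/LPS. At 4.66 kb, where p300 and H3K27Ac fell with IL-4, it scored 18.77 and 14.95 in ctrl/LPS and 7.03 and 7.24 in IL-4 PT/LPS. That site was called with LPS and was lower with pretreatment (log2 change -1.50 ± 0.22, adjusted p = 0.0035). The pretreated scores lay below both ctrl/LPS scores.

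At Stat5a p65 at 1.46 kb was seen only with LPS, at 16.55 and 28.81 in ctrl/LPS and 42.5 and 40.54 in IL-4 PT/LPS, and was called with LPS alone. Its promoter site at -0.21 kb was listed only in IL-4 PT/LPS, at 4.88 and 8.95. This is the site where p300 had a peak only with IL-4. Its window is shown as the place both antibodies share, with the STAT pair in capitals.
Stat5a -0.21 kb, chr11:100858992-100859291, + strand: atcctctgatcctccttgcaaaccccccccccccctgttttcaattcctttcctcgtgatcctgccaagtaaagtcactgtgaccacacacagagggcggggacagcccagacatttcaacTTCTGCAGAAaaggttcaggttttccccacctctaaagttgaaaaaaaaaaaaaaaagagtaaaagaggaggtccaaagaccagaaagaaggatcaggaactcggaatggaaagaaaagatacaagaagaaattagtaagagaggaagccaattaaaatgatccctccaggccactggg
Stat6 at 1.54 kb, in the first intron, was likewise listed only in IL-4 PT/LPS, at 12.42 and 8.17. Its window is shown for the NF-kB motif in capitals, which 16.7% of all 37556 p65 windows held.
Stat6 1.54 kb, chr10:127644382-127644681, + strand: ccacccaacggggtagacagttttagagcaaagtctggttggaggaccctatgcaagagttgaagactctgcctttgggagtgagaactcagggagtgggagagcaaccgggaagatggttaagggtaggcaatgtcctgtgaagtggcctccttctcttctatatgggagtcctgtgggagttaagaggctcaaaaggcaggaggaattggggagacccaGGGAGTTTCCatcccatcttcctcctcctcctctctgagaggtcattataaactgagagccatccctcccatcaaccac
The strongest Stat6 site, at -10.9 kb, scored 19.32 and 15.67 in ctrl/ctrl, 15.71 and 18.22 in IL-4 PT/ctrl, 47.54 and 65.26 in ctrl/LPS and 83.98 and 84.59 in IL-4 PT/LPS, and was not called. Only in ctrl/ctrl were its peaks named for Stat6.

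At Stat5b 17.0 kb p65 had peaks only with LPS, 9.8 and 7.55 in ctrl/LPS and 23.85 and 25.4 in IL-4 PT/LPS. LPS alone was called, but with a score for missing peaks 4 times as high the change was -0.33. IL-4 PT/LPS was higher than ctrl/LPS (log2 change 1.25 ± 0.22, adjusted p = 0.0084, and 0.068 to 0.069 without either IL-4 PT/LPS list). At 3.82 kb it was listed only in ctrl/LPS, at 7.05 and 5.56. NF-kB motifs were in the windows of 9 of 45 tested member sites (20%), beside the 16.7% over all.

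At Jak2 p65 was called with LPS at -12.0, 1.16 and 19.5 kb, and none of these had a peak without LPS. The site at -12.0 kb, that of the largest p300 change, scored 12.09 and 7.94 in ctrl/LPS and 20.87 and 16.19 in IL-4 PT/LPS. For LPS alone its change was -0.14 with a score for missing peaks 4 times as high. The site at 19.5 kb scored 17.26 and 13.88 in ctrl/LPS and 5.13 and 10.3 in IL-4 PT/LPS (log2 change -1.36 ± 0.35, adjusted p = 0.033, and 0.054 to 0.12 without any 1 list but IL-4 PT/LPS replicate 2). At -49.9 kb only IL-4 PT/LPS had peaks, 11.97 and 8.94. The promoter site (-0.53 kb) scored 3.79 and 8.05, 11.26 and 5.14, 37.94 and 26.01, and 36.33 and 24.3 in the 4 groups in that order, and was not called.

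The Jak1 sites of p65 at 60.3 and -11.6 kb had peaks only in IL-4 PT/LPS, at 6.85 and 6.48 and at 4.11 and 4.55. At 0.563 kb p65 scored 6.42 and no peak in ctrl/LPS and 18.79 and 21.86 in IL-4 PT/LPS (log2 change 2.54 ± 0.71, adjusted p = 0.045, and 0.081 to 0.21 without any 1 list but those of ctrl/LPS). The strongest Jak1 site, -27.9 kb, was not called, with 16.34 and 18.02, 18.38 and 9.74, 30.5 and 31.07, and 29.74 and 35.35 in the 4 groups.

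With IL-4 PT alone 2 of 19 member sites were called (10.5%, 1 higher and 1 lower, beside 10.1% of all sites), both named for Tyk2. The site at -4.92 kb, inside Cdc37, was the strongest p65 site of the members. It scored 44.44 and 45.04 in ctrl/ctrl, 13.35 and 9.95 in IL-4 PT/ctrl, 92.29 and 100.83 in ctrl/LPS and 112.76 and 120.41 in IL-4 PT/LPS. So IL-4 PT alone went with less p65 (log2 change -1.76 ± 0.14, adjusted p = 0.0047), and with LPS the pretreated lists were the highest of all (interaction 1.77 ± 0.20, adjusted p = 0.0031). Without IL-4 PT/LPS replicate 1 or 2 the interaction was 1.78 or 1.76 and missed the threshold.

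The Tyk2 site at 5.61 kb had no peak in ctrl/ctrl, 5.75 and 3.82 in IL-4 PT/ctrl, 14.33 and 8.59 in ctrl/LPS and 13.8 and 11.89 in IL-4 PT/LPS. It was called with LPS (adjusted p = 0.0061) and with IL-4 PT (adjusted p = 0.032, and 0.056 to 0.13 without any 1 list but those of ctrl/LPS). The interaction passed, with a lower LPS response after pretreatment (adjusted p = 0.028), but turned to 1.08 (adjusted p = 0.68) with the upper 50% of peaks. The site lies beside the p300 and H3K27Ac gain at 5.52 and 5.56 kb. In IL-4 PT/LPS against ctrl/LPS 13 of 45 member sites were called (28.9%, 9 higher and 4 lower, beside 31.3% of all sites), and for the interaction 10 of 45 (22.2%, 6 and 4, beside 23.3%). Without sites listed in 1 group only the counts were 6 of 38 (15.8%, 3 and 3, beside 14.8%) and 4 of 38 (10.5%, 1 and 3, beside 7.54%). Without IL-4 PT/LPS replicate 1 the counts over all tested member sites were 2 and 0 (of 39 tested, 7 of them with an unadjusted interaction p under 0.05 in limma), without replicate 2 they were 7 and 2, and without ctrl/ctrl replicate 1 the interaction count was 6. The median log2 change of members in IL-4 PT/LPS against ctrl/LPS was 0.05, where all sites had 0.41. Stat3 at 1.14 kb was listed only in IL-4 PT/LPS, at 3.31 and 7.89. Stat3 at -7.44 kb was called, with no peak and 3.06 in ctrl/LPS and 8.93 and 6.33 in IL-4 PT/LPS (adjusted p = 0.037, and 0.055 to 0.27 without any 1 list but ctrl/LPS replicate 2).

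**Figure D5:**
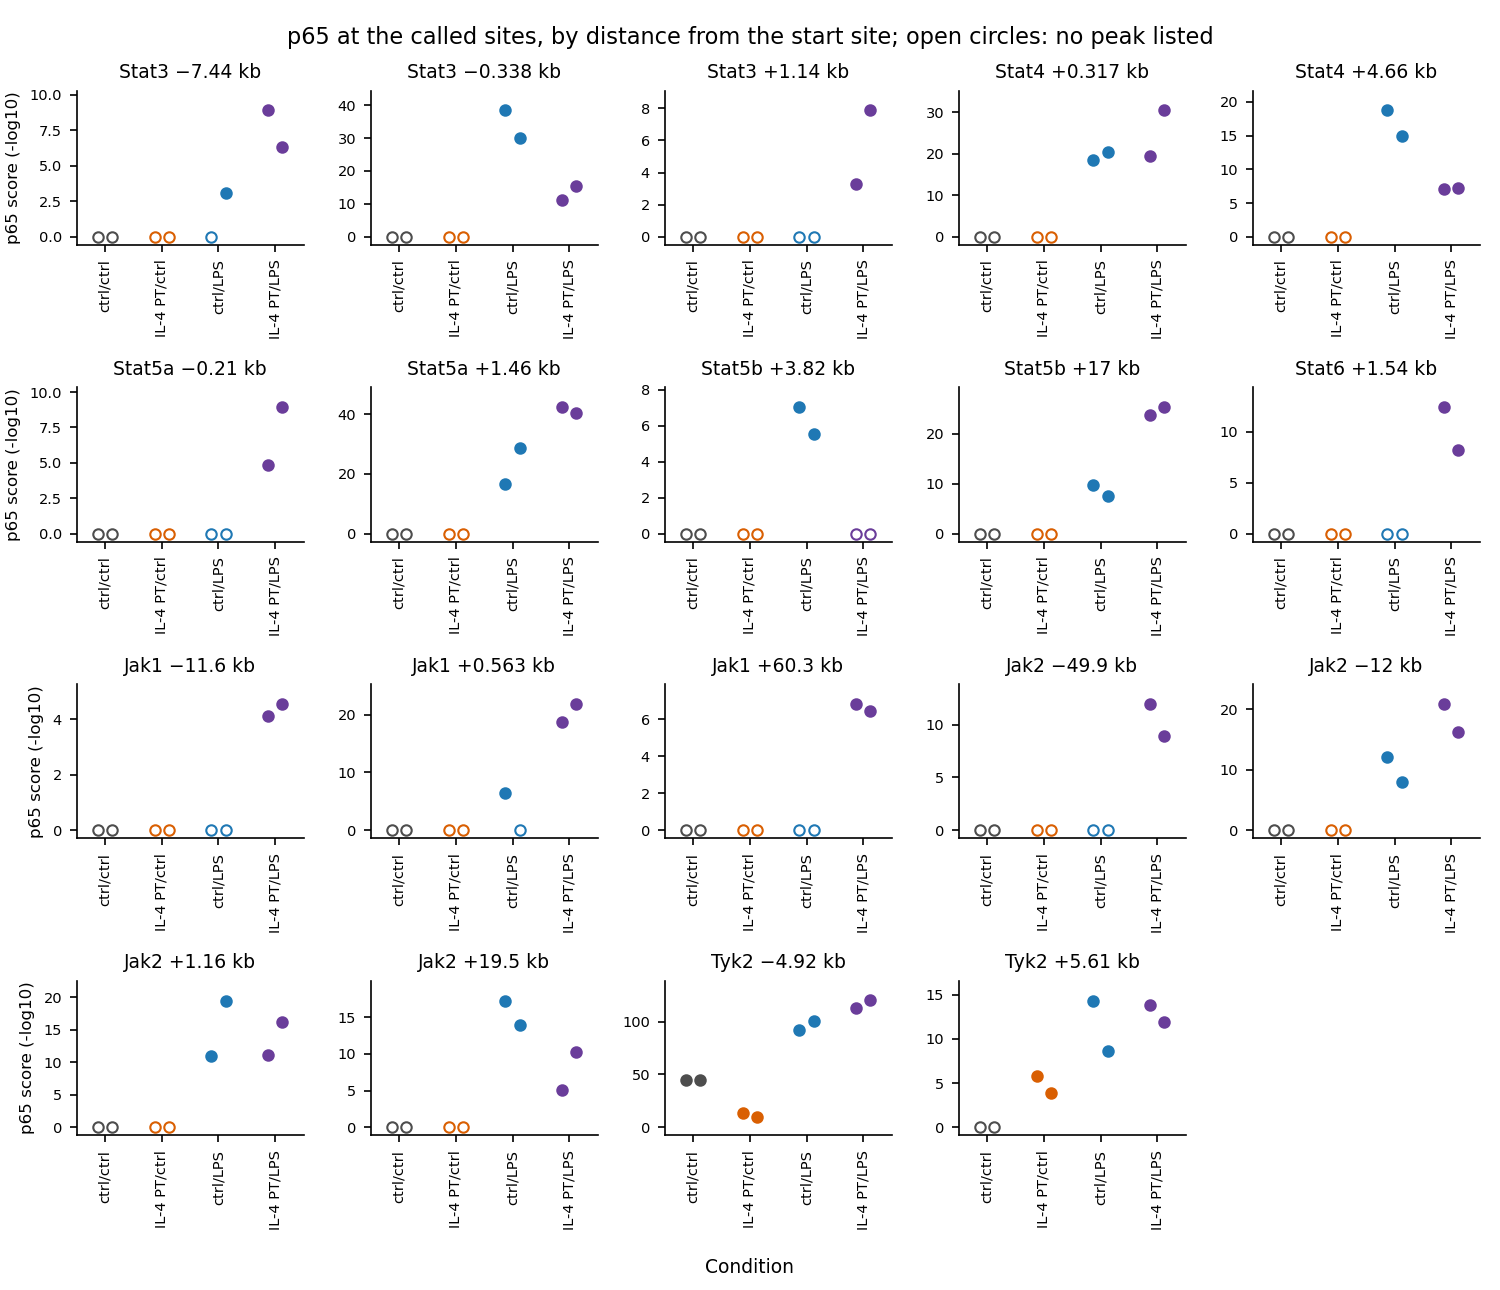
Score of p65 (vertical axis, peak score) per list in the 4 pretreatment groups at the member sites called in at least 1 comparison, 7 of them listed in 1 group only, each point 1 list, lists without a peak drawn as open circles at 0 and the scale set per site. The Tyk2 site at -4.92 kb is the highest, at 112.76 and 120.41 in IL-4 PT/LPS.

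The receptors, SOCS proteins and other regulators of the pathway, 31 genes, give the setting. At these genes p300 was called at 72 of 272 sites (26.5%, 62 higher and 10 lower, beside 21% of all sites), and H3K27Ac at 60 of 107 regions (56.1%, 38 and 22, beside 43.4%). Without those listed in 1 group only, the counts were 49 of 232 (21.1%, beside 18.4%) and 50 of 97 (51.5%, beside 39.7%). Cish and Socs1, feedback inhibitors of JAK and STAT signalling, each had a p300 site listed with IL-4 only, at 211.04 and 212.08 and at 149.65 and 164.44. After 1 hr of IL-4 RNAPII-pS5 was called at 2 of 30 of them (beside 0.46% of all genes). Socs1 rose from 73.12 and 45.35 to 229.71 and 190.13 (log2 change 1.89 ± 0.13, adjusted p = 0.0083), and Socs4 was listed with IL-4 only, at 40.61 and 31.61. RNAPII-pS2 was called at 3 of 24 (beside 1.53%), all lower in the libraries labelled IL-4. Il4ra, the IL-4 receptor, had 20.36 and 34.09 in those labelled ctrl and 5.12 and 4.53 in those labelled IL-4 (log2 change -2.37, adjusted p = 0.041). Socs1 had 55.5 and 93.16 against 4.28 and no peak (adjusted p = 0.0018), the opposite sign to its RNAPII-pS5, and Cish was listed only in the libraries labelled ctrl, at 39.19 and 59.53.

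After 24 hr of IL-4, Cish and Socs1 were the 2 of 30 called for RNAPII-pS5 (beside 7.73% of all genes), both higher. Cish had no peak in ctrl/ctrl and 7.22 and 7.25 in IL-4 PT/ctrl (adjusted p = 0.044), and Socs1 rose from 11.38 and 7.73 to 34.01 and 26.37 (log2 change 1.61 ± 0.26, adjusted p = 0.016). With LPS alone RNAPII-pS5 was called at 9 of 30 (4 higher and 5 lower, beside 27.5%) and RNAPII-pS2 at 8 of 31 (5 and 3, beside 27.3%). p65 was called at 57 of 137 sites with LPS alone (41.6%, 41 and 16, beside 39.8%), at 11 of 97 with IL-4 PT alone (11.3%, 5 and 6, beside 10.1%), and at 39 of 164 in IL-4 PT/LPS against ctrl/LPS (23.8%, 34 and 5, beside 31.3%), the last being 14 of 139 (10.1%, beside 14.8%) without sites listed in 1 group only. PU.1 was called at 2 of 276 (beside 0.0735%), at Ifngr1, an interferon-gamma receptor chain (2.57 ± 0.34, adjusted p = 0.03), and Socs1 (2.1 ± 0.29, adjusted p = 0.037).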

How the data were processed

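Each of the 56 deposited files is an annotated peak list from 1 ChIP-seq library. The authors gave peak scores as -log10 values from MACS2 (p or q is not given in the sources used here) and, for H3K27Ac, as a HOMER signal over regions of fixed length. The submitters' processing notes name BWA 0.7.10, SAMtools 0.1.19, HOMER 4.2 and MACS2 2.0.10, and the build is mm10. Libraries were made with 2 kits. Groups came from the labels.

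For each antibody and experiment, overlapping peaks were merged into sites (highest score per list), and RNAPII peaks outside intergenic space were summed per gene. A missing peak took the lowest score of the antibody's lists (1.30 to 1.76, H3K27Ac 9.10). Log2 scores were centred per list on the median of features listed in all lists, and features with a peak in at least 2 lists were tested with limma 3.58.1 (R 4.3.3, trend on), 11 fits and 20 comparisons, with Benjamini-Hochberg adjustment over all features. A call needs an adjusted p of at most 0.05 and a peak in at least 1 list of the groups compared. The latter condition was added after seeing the data, since features absent from both groups otherwise passed (5 member p65 sites with LPS alone). Counts without features listed in 1 group only keep the same fit and adjustment. Of the member sites, 9 of p300, 20 of PU.1, 17 of p65, 2 of H3K27Ac, 15 of HDAC1, 14 of HDAC2 and 8 of HDAC3 had too few peaks to be tested. The fit was tested on simulated data. The authors' own comparisons used reads and were not repeated.

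The text names every called member feature, the strongest site of a gene and antibody, and single features chosen after their values were seen, where a count or a neighbouring call turns on them. Members, lists and rules were chosen with earlier results of these data known. Sequences were read with Python 3.11.15 and samtools 1.23.1 from GRCm38. No column of other samples was in the files.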

Additional observations from a re-analysis of the deposited data

Results flagged for a closer look

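In 5 cases the LPS response with IL-4 pretreatment differed from that without by limma's test of the difference itself (adjusted p at most 0.05), given here as the log2 difference of the responses. RNAPII-pS5 at Stat5a differed by 2.91. For p65 the difference was 1.77 at Tyk2 -4.92 kb, -2.1 at Tyk2 5.61 kb, -1.83 at the Stat3 promoter (-0.338 kb) and -1.7 at Stat4 4.66 kb. The Stat3 and Stat4 sites had no peak in any list without LPS. Apart from centring, their difference repeats that between IL-4 PT/LPS and ctrl/LPS and is no separate result. That at Tyk2 5.61 kb turned to 1.08 (adjusted p = 0.68) with the upper 50% of peaks. A further 6 p65 sites passed the same test but were listed in 1 group only, which met the minimum of 2 lists by itself, so they are not counted here. Values at sites without a peak in some groups depend on the score that stands in for a missing peak. Without IL-4 PT/LPS replicate 1 no p65 difference was called, and without replicate 2 these 4 missed the threshold as well. The values without replicate 1 or 2 were 1.78 and 1.76 at Tyk2 -4.92 kb and -2.24 and -1.95 at Tyk2 5.61 kb. They were -1.65 and -2.01 at the Stat3 promoter and -1.71 and -1.68 at Stat4 4.66 kb. The difference of RNAPII-pS5 at Stat5a was lost without any 1 list. Groups of 2 lists are too small for a check of single lists that stand apart within a group.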

How the results depend on the processing

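Of 47 called member results at features listed in more than 1 group, 10 kept call and direction under every alternative that tested them (H3K27Ac 3, RNAPII 1, p65 6, p300 0). A feature that an alternative did not test was not counted there as lost. The RNAPII result, RNAPII-pS5 at Stat4 with LPS alone, had values under 15 alternatives, where that of Stat3 with IL-4 PT alone had 17. Of their 642 alternative values 450 kept both, 187 lost the threshold, 4 changed sign without passing it and 1 reversed. The 4 were p300 Jak1 -28.0 kb without centring (0.01), p65 Stat5b 17.0 kb (-0.33) and Jak2 -12.0 kb (-0.14) with LPS alone and the score for a missing peak 4 times as high, and the p65 interaction at Tyk2 5.61 kb with the upper 50% of peaks (1.08). With the higher score H3K27Ac Stat4 4.59 kb reversed (0.05). Of 19 further calls, at features listed in 1 group only, it reversed p65 Stat5b 3.82 kb with LPS (-0.79) and p65 Jak1 -11.6 kb against ctrl/LPS (-0.27) and for the interaction (-0.46), and turned the interactions at Stat5a -0.21 kb (-0.08) and Jak1 60.3 kb (-0.12). The cause was not tested. Depth is unknown, so a missing peak may be a weak one. The p65 results kept under every alternative include LPS calls at sites that had peaks only with LPS.

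Counts of called members moved as follows (IL-4 PT/LPS stands for its comparison with ctrl/LPS). Shares over all features are given beside few of these counts, which show only how the calls depend on settings. Without centring: RNAPII-pS5 LPS 2 and IL-4 PT/LPS 3, RNAPII-pS2 interaction 1, p300 0 (0% of all sites), p65 LPS 16 and IL-4 PT 1. With the score for a missing peak 4 times as high: H3K27Ac 16, PU.1 1, RNAPII-pS5 IL-4 PT/LPS 2 and interaction 2, RNAPII-pS2 IL-4 PT/LPS 1 and interaction 1, p65 LPS 24 and IL-4 PT 1. With a peak needed in every list: PU.1 1, RNAPII-pS5 LPS 0, RNAPII-pS2 LPS 0, IL-4 PT 2, IL-4 PT/LPS 1 and interaction 1, p65 LPS 1, IL-4 PT 1, IL-4 PT/LPS 0 and interaction 1. With no filter: PU.1 1, RNAPII-pS5 interaction 0, p300 6. With the upper 50% of peaks: H3K27Ac 3, RNAPII-pS5 LPS 0 and IL-4 PT 0, RNAPII-pS2 LPS 2, IL-4 PT 2, IL-4 PT/LPS 1 and interaction 1, p65 IL-4 PT/LPS 6. With the highest score in place of the sum: RNAPII-pS5 LPS 2, IL-4 PT 0, IL-4 PT/LPS 2 and interaction 0, RNAPII-pS2 LPS 0, IL-4 PT 1, IL-4 PT/LPS 1 and interaction 1. With intergenic peaks: RNAPII-pS5 IL-4 PT/LPS 2, RNAPII-pS2 IL-4 PT/LPS 1 and interaction 1. For p300, 2 without a trend and 6 with an overlap of 50%. Leaving out single lists gave H3K27Ac 5 to 9, PU.1 0 to 2, p300 9 to 25, RNAPII-pS5 LPS 1 to 1, IL-4 PT 0 to 0, IL-4 PT/LPS 0 to 1 and interaction 0 to 0, RNAPII-pS2 LPS 0 to 1, IL-4 PT 0 to 2, IL-4 PT/LPS 0 to 1 and interaction 0 to 0, p65 LPS 10 to 13, IL-4 PT 1 to 2, IL-4 PT/LPS 2 to 15 and interaction 0 to 12, and HDAC and 1 hr RNAPII counts of 0.

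Deviations of same-numbered lists of 1 antibody were uncorrelated (-0.048 to 0.060) after centring, at features listed in all its lists. Centring removes shifts of a whole list, so this cannot show whether such lists shared a culture, animal or batch. With the replicate block the counts were PU.1 1, RNAPII-pS5 IL-4 PT 0 and RNAPII-pS5 interaction 0.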
